A study of Mus musculus with 11 samples.

Results

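The genes Sptan1, Sptbn1, Ank2 and Ank3 of the spectrin and ankyrin membrane skeleton were followed in ribosome footprints of mouse cortex after a focal stroke. They were chosen by their presence, from measured counts, among listed membrane skeleton genes in the footprint table, and each gene is given by the transcript with most counts over all libraries; the list was drawn up with results of these data known, so their levels are a description. These 4 genes were 4 of the 4338 genes in the table, and all 4 were among the 3835 genes with enough counts to be tested. A footprint is the short piece of messenger RNA that a ribosome shields from nuclease. No total RNA was analysed here, so the amount of a transcript and how often it is translated cannot be told apart, nor can fewer cells of a type and less RNA per cell.

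The libraries came from cortex of wild type C57BL6 mice of 7 to 8 weeks. Ipsilateral libraries (replicates 2, 4, 5 and 6) held cortex of the hemisphere whose middle cerebral artery had been blocked by a filament for 35 min, taken after 3 h of reperfusion. Contralateral libraries (replicates 1, 4, 5 and 6) held cortex of the opposite hemisphere after the same occlusion and reperfusion. Sham libraries (replicates 1, 2 and 5) came from mice that were anesthetized and had the arteries exposed without a filament; neither the side sampled nor a time after surgery is given. The replicate number stands for the day of surgery, and the labels do not say if both hemispheres of a day were those of 1 animal. The tissue label of the ipsilateral libraries names the contralateral side, while their titles and descriptions name the ipsilateral one; the titles were followed. As a check of the labels, Hspa1a, an inducible heat shock chaperone, averaged 3569 ± 1511 CPM (counts scaled to 1000000 per library) in ipsilateral libraries, 114 ± 42.4 CPM in contralateral libraries and 101 ± 36.5 CPM in sham libraries (SD, n = 4, 4 and 3).

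Spectrins are long, flexible rods made of an alpha and a beta chain wound side by side. Pairs of such rods join head to head and are cross-linked by actin into a net under the plasma membrane, which in axons forms evenly spaced rings. Ankyrins are adaptors that bind beta spectrin on one side and membrane proteins on the other, among them sodium channels, the sodium pump and cell adhesion molecules. Sptan1 encodes alpha II spectrin, the main alpha chain outside red blood cells, which calpain and caspases cut in injured brain. Sptbn1 encodes its common partner beta II spectrin. Ank2 encodes ankyrin-B, found along axons, and Ank3 encodes ankyrin-G, which organises the axon initial segment and the nodes of Ranvier.

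The libraries were shallow. Counts over all genes came to between 35068 and 137341 in ipsilateral libraries, between 137372 and 571351 in contralateral libraries and between 64460 and 256657 in sham libraries. No ipsilateral library was deeper than a contralateral one, and ipsilateral replicate 4 was the shallowest of all. Levels below are CPM after trimmed mean of M values (TMM) scaling, and changes are log2 changes from edgeR's quasi-likelihood fit with its standard error, 95% interval and a Benjamini-Hochberg adjusted p over all 3835 genes. A gene was called at an adjusted p under 0.05.

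Related genes could in principle share footprints, so the longest stretches of identical sequence within each pair were sought. The stretches are shown because footprints inside them cannot be assigned to a gene of the pair. They are read from GENCODE vM21 transcripts on mm10, 5′ to 3′ on the transcribed strand; capitals mark the identical run, and lower case marks 12 coding bases on either side. The ankyrin run of 23 nt lies at chr3:126957310-126957332 on the minus strand for Ank2 and at chr10:69977733-69977755 on the plus strand for Ank3. The spectrin run of 17 nt lies at chr2:29996199-29996215 on the plus strand for Sptan1 and at chr11:30121479-30121495 on the minus strand for Sptbn1.
Ank2: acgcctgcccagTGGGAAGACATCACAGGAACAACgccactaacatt
Ank3: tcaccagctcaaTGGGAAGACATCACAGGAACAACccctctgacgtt
Sptan1: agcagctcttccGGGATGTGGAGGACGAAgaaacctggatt
Sptbn1: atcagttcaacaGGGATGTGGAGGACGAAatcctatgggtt
All of these runs lie in coding sequence. No run of 28 nt was shared among the 4 genes, and the transcripts of Sptan1, Ank2 (its long coding transcript) and Ank3 had 0% of their 28-nt words in any other gene of the annotation. For Sptbn1 the share was 0.107%. Footprints of at least that length therefore separated the members in nearly their whole length. The table does not give the length of each footprint.

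Sptan1 (ENSMUSG00000057738.13) spans chr2:29965560-30031451 on the plus strand of mm10. It was the most heavily read member, at 2992, 2524, 1644 and 1291 CPM in ipsilateral replicates 4, 5, 2 and 6. The contralateral libraries held 2034, 1805, 1558 and 1284 CPM in replicates 4, 1, 5 and 6. The sham libraries held 2827, 2168 and 1668 CPM in replicates 1, 2 and 5. Ipsilateral replicates 4 and 5 and sham replicate 1 were the high libraries, contralateral replicate 6 and ipsilateral replicate 6 the low ones, and all 3 groups overlapped. These values rested on 102 to 220 counts in ipsilateral libraries, 266 to 723 in contralateral libraries and 138 to 720 in sham libraries. The means were 2113 ± 783 CPM in ipsilateral libraries (SD, n = 4), 1670 ± 323 CPM in contralateral libraries (SD, n = 4) and 2221 ± 581 CPM in sham libraries (SD, n = 3).

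Sptbn1 (ENSMUSG00000020315.18), the beta chain of the same rod, spans chr11:30099395-30268175 on the minus strand. Its footprints ran at 821, 717, 559 and 523 CPM in ipsilateral replicates 4, 5, 6 and 2. The contralateral libraries held 665, 539, 535 and 497 CPM in replicates 4, 1, 5 and 6, and the sham libraries held 664, 662 and 581 CPM in replicates 1, 5 and 2. The sham libraries lay inside the ipsilateral range, and 3 of the 4 contralateral libraries lay below every sham library. The means were 655 ± 139 CPM in ipsilateral libraries (SD, n = 4), 559 ± 73.3 CPM in contralateral libraries (SD, n = 4) and 636 ± 47.1 CPM in sham libraries (SD, n = 3).

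Ank2 (ENSMUSG00000032826.17) spans chr3:126921612-127499350 on the minus strand. Its footprints ran at 1261, 940, 921 and 867 CPM in ipsilateral replicates 4, 5, 6 and 2. The contralateral libraries held 1032, 942, 900 and 701 CPM in replicates 4, 5, 6 and 1, and the sham libraries held 938, 880 and 815 CPM in replicates 1, 2 and 5. Ipsilateral replicate 4, at 43 counts for this gene, was the highest library, contralateral replicate 1 was the lowest, and the groups overlapped. The means were 997 ± 179 CPM in ipsilateral libraries (SD, n = 4), 894 ± 140 CPM in contralateral libraries (SD, n = 4) and 878 ± 61.5 CPM in sham libraries (SD, n = 3).

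Ank3 (ENSMUSG00000069601.14) spans chr10:69398773-70027438 on the plus strand. Its footprints ran at 440, 439, 396 and 383 CPM in ipsilateral replicates 4, 6, 2 and 5. The contralateral libraries held 597, 532, 451 and 340 CPM in replicates 4, 1, 6 and 5, and the sham libraries held 467, 440 and 418 CPM in replicates 1, 2 and 5. The contralateral libraries held both the highest and the lowest value, and the ipsilateral and sham libraries sat between them. The means were 415 ± 29.1 CPM in ipsilateral libraries (SD, n = 4), 480 ± 111 CPM in contralateral libraries (SD, n = 4) and 442 ± 24.5 CPM in sham libraries (SD, n = 3).

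**Figure D1:**
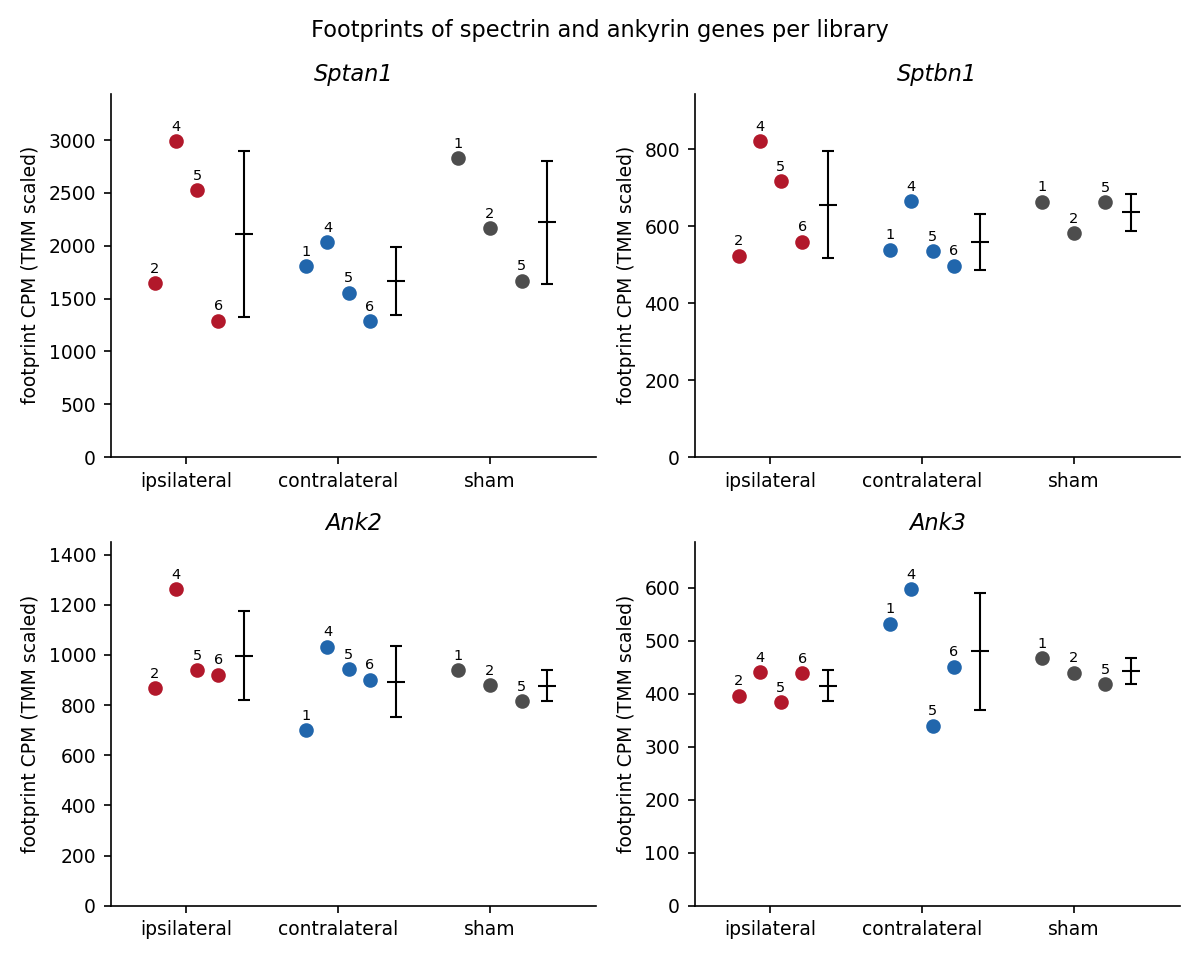
Footprint level of Sptan1, Sptbn1, Ank2 and Ank3 in CPM after TMM scaling (vertical axes from 0), with 1 numbered point per library and the mean ± SD beside each group. Within each gene the ipsilateral, contralateral and sham libraries overlap, and the widest spread is that of Sptan1, at 1284 to 2992 CPM.

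In the order of mean CPM over the 11 libraries, Sptan1 stood at place 56 of the 3835 tested genes with 1981 CPM, Ank2 at place 175 with 927 CPM, Sptbn1 at place 283 with 615 CPM and Ank3 at place 427 with 446 CPM. The median tested gene averaged 126 CPM. The coefficient of variation over all 11 libraries was 29.7% for Sptan1, against 16.2% for Sptbn1, 15.7% for Ank3 and 15.0% for Ank2. Its median was 19.9% over the 1130 tested genes that averaged at least 200 CPM, so Sptan1 varied more than this median and the others less.

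Levels of different genes are better compared per length of coding sequence, here the length annotated in GENCODE vM21. Whether the counts were made on these models is not known. Sptan1 had 285 ± 106 CPM per kilobase of coding sequence in ipsilateral libraries, 225 ± 43.5 in contralateral libraries and 299 ± 78.4 in sham libraries (SD, n = 4, 4 and 3). Sptbn1 had 92.4 ± 19.6, 78.9 ± 10.3 and 89.6 ± 6.64 CPM per kilobase in ipsilateral, contralateral and sham libraries, and Ank3 had 52.7 ± 3.70, 61.0 ± 14.1 and 56.2 ± 3.12. All libraries of Sptan1 lay above all those of Sptbn1 in each group. All those of Sptbn1 lay above those of Ank3 in the ipsilateral and sham groups, while in the contralateral group the ranges, 70.2 to 93.9 for Sptbn1 and 43.2 to 75.8 for Ank3, overlapped. For Ank2 no level per length is given, because its representative has no annotated coding sequence.

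The comparison of the occluded hemisphere with sham cortex asks which footprints differ 3 h after reperfusion. None of the 4 genes was called, against a background of 0.104% of the tested genes (4 of 3835). None reached an unadjusted p under 0.05 (7.74% of the tested genes did), and none had group ranges that did not overlap (7.2% did). The edgeR log2 change, ipsilateral minus sham, was -0.12 ± 0.28 for Sptan1 (95% interval -0.73 to 0.50, adjusted p = 0.978) and -0.02 ± 0.18 for Sptbn1 (-0.40 to 0.35, adjusted p = 0.999). It was 0.15 ± 0.17 for Ank2 (-0.20 to 0.49, adjusted p = 0.904) and -0.10 ± 0.21 for Ank3 (-0.52 to 0.31, adjusted p = 0.963). The intervals for Sptbn1 and Ank2 stay inside 0.50 on the log2 scale in both directions. Those of Sptan1 and Ank3 reach further on the low side, to -0.73 and -0.52, and that of Sptan1 also reaches 0.50 on the high side. Without ipsilateral replicate 6 the Sptan1 value turned to 0.06, and without sham replicate 1 to 0.11. On the 2 shared days, replicates 2 and 5, the log2 difference of the libraries was -0.40 and 0.60 for Sptan1. It was -0.15 and 0.12 for Sptbn1, -0.02 and 0.21 for Ank2, and -0.15 and -0.13 for Ank3.

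The comparison of the occluded hemisphere with the opposite one asks the same within operated animals. Again none of the 4 genes was called, against 0.365% of the tested genes (14 of 3835). None reached an unadjusted p under 0.05 (7.61% did), and none had ranges that did not overlap (4.41% did). The edgeR log2 change, ipsilateral minus contralateral, was 0.31 ± 0.26 for Sptan1 (95% interval -0.26 to 0.88, adjusted p = 0.844) and 0.19 ± 0.17 for Sptbn1 (-0.15 to 0.53, adjusted p = 0.844). It was 0.12 ± 0.16 for Ank2 (-0.19 to 0.43, adjusted p = 0.929) and -0.19 ± 0.19 for Ank3 (-0.57 to 0.19, adjusted p = 0.884). Libraries that share a day of surgery can be set side by side for replicates 4, 5 and 6. In that order the log2 difference was 0.30, 0.42 and 0.17 for Sptbn1, and 0.56, 0.70 and 0.01 for Sptan1. The Sptan1 libraries of replicate 6, at 1291 and 1284 CPM, differed by less than their counting errors of 8.16% and 3.72%. A counting error is the square root of a count as a share of it. Sptbn1 rested on 28, 58 and 65 ipsilateral counts. The differences were 0.29, -0.00 and 0.03 for Ank2, and -0.44, 0.17 and -0.04 for Ank3. How many of all tested genes keep 1 sign over these days was not counted.

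The comparison of the opposite hemisphere with sham cortex asks whether the unoccluded side of an operated animal differs from sham. None of the 4 genes was called, against a background of 0% of the tested genes: edgeR's quasi-likelihood test called 0 of 3835, with 217 genes at an unadjusted p under 0.05, and DESeq2 called 2. None of the 4 reached an unadjusted p under 0.05 (5.66% of the tested genes did), and none had ranges that did not overlap (7.69% did). The edgeR log2 change, contralateral minus sham, was -0.42 ± 0.27 for Sptan1 (95% interval -1.02 to 0.18, adjusted p = 0.943) and -0.21 ± 0.17 for Sptbn1 (-0.56 to 0.14, adjusted p = 0.960). It was 0.03 ± 0.16 for Ank2 (-0.30 to 0.35, adjusted p = 1.00) and 0.09 ± 0.19 for Ank3 (-0.29 to 0.47, adjusted p = 1.00). The Sptan1 interval reaches to -1.02, the farthest from 0 of the 12 intervals. On the 2 shared days, replicates 1 and 5, the log2 difference was -0.65 and -0.10 for Sptan1. It was -0.30 and -0.31 for Sptbn1, -0.42 and 0.21 for Ank2, and 0.19 and -0.30 for Ank3. The share of all tested genes that keep 1 sign on both days was not counted. This comparison and the ipsilateral one share the sham libraries.

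**Figure D2:**
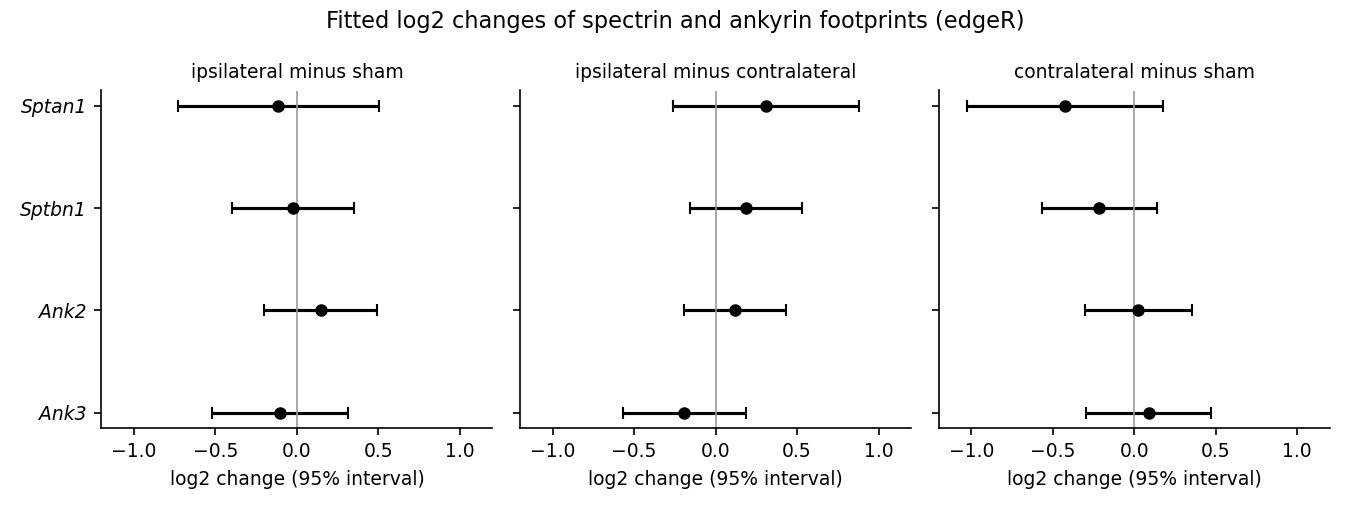
Fitted log2 change (point) from edgeR with its derived 95% interval (bar) for each gene in 3 comparisons, named above each panel as group minus group. All 12 intervals include 0, and the widest are those of Sptan1.

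The median log2 change of the 4 genes was -0.06 for ipsilateral minus sham, 0.15 for ipsilateral minus contralateral and -0.09 for contralateral minus sham, beside medians over all tested genes of -0.00, 0.01 and -0.00. Long coding sequences as a class sat near 0: the 181 tested genes with at least 6000 nt of coding sequence, Sptan1, Sptbn1 and Ank3 among them, had medians of 0.03, 0.02 and 0.00 in the same order of comparisons, and edgeR called none of them.

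A ratio of counts in 1 library needs no scaling between libraries. For the chains of the spectrin rod, the Sptan1 to Sptbn1 ratio was 3.14, 3.64, 3.52 and 2.31 in ipsilateral replicates 2, 4, 5 and 6. It was 3.35, 3.06, 2.91 and 2.58 in contralateral replicates 1, 4, 5 and 6, and 4.26, 3.73 and 2.52 in sham replicates 1, 2 and 5. Alpha spectrin footprints outnumbered beta spectrin footprints in every library, and the groups overlapped. The mean log2 difference was -0.14 for ipsilateral minus sham (two-sided exact permutation p = 0.629), 0.07 for ipsilateral minus contralateral (exact p = 0.714) and -0.21 for contralateral minus sham (exact p = 0.4); each was 0.714 after adjustment over 6 ratio tests.

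For the ankyrins, the Ank2 to Ank3 ratio was 2.19, 2.87, 2.45 and 2.10 in ipsilateral replicates 2, 4, 5 and 6. It was 1.32, 1.73, 2.77 and 2.00 in contralateral replicates 1, 4, 5 and 6, and 2.01, 2.00 and 1.95 in sham replicates 1, 2 and 5. The 3 sham libraries lay within a narrow band, all 4 ipsilateral libraries lay above it, and the contralateral libraries lay on both sides. The mean log2 difference, ipsilateral minus sham, was 0.26 (two-sided exact permutation p = 0.0571, the smallest p that 4 against 3 libraries allow; adjusted over 6 tests p = 0.343). The other differences were 0.34 for ipsilateral minus contralateral (exact p = 0.229, adjusted p = 0.686) and -0.08 for contralateral minus sham (exact p = 0.686, adjusted p = 0.714). The ratio rested on as few as 43 counts of Ank2 and 15 of Ank3, in ipsilateral replicate 4. In sham replicates 1, 2 and 5 it rested on 119, 28 and 79 counts of Ank3, with counting errors of 9.17%, 18.9% and 11.3%. The width of the sham band and the gap from 2.01 to 2.10 are both smaller than these errors.

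**Figure D3:**
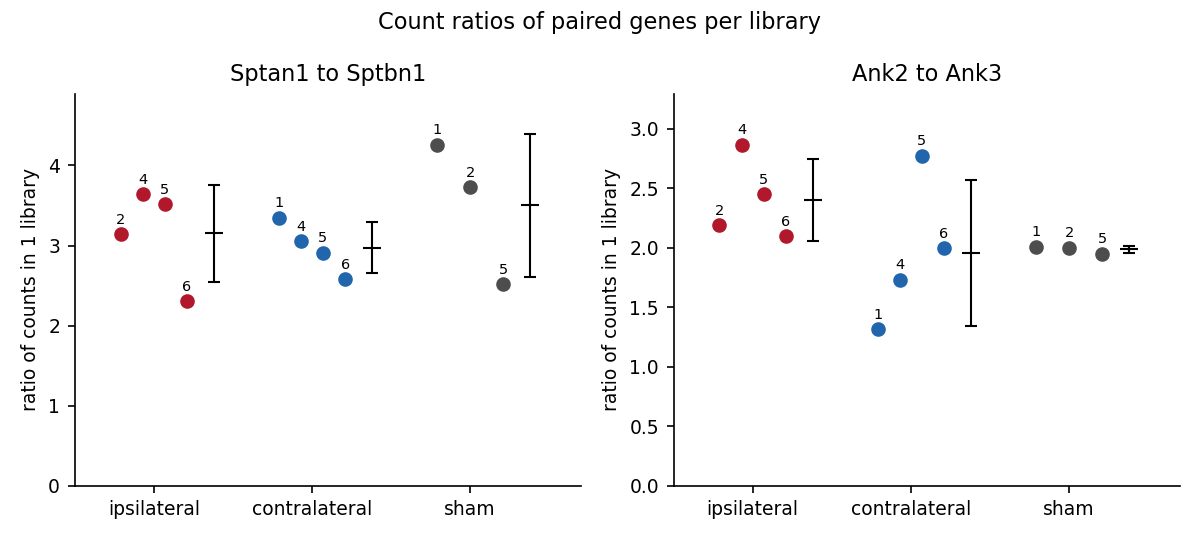
Ratio of Sptan1 to Sptbn1 counts (left) and of Ank2 to Ank3 counts (right) in each library, numbered by replicate, with the mean ± SD beside each group and the vertical axes starting at 0. The 4 ipsilateral Ank2 to Ank3 ratios, 2.10 to 2.87, sit above the 3 sham ratios, 1.95 to 2.01, while the contralateral ratios run from 1.32 to 2.77. The gap from 2.01 to 2.10 is smaller than the counting error of a sham library.

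The table also counts other transcripts of each gene, and the same footprint may be counted for several of them. Sptan1 had 7 transcripts in the table with 4 distinct sets of counts, Sptbn1 4 with 3, Ank2 11 with 10 and Ank3 27 with 14. The log2 ratio of group means, ipsilateral over sham, was above 0 for 10 of 10 distinct Ank2 transcripts, at 0.04 to 0.24, and for 3 of 14 distinct Ank3 transcripts, at -0.39 to 0.18. It ran from -0.02 to 0.04 over the Sptbn1 transcripts and from -0.49 to 0.37 over those of Sptan1. Transcripts of a gene can share footprints and are no replicates of it.

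The 5 long Sptan1 transcripts differ by small exons that are spliced in or out, printed here because they are the known differences between the annotated alpha II spectrin isoforms; the exon of 60 nt alone went with a difference in counts in the table. They are from mm10 on the plus strand, with the exon in capitals and 12 coding bases of the neighbouring exons in lower case. The exon of 60 nt lies at chr2:30001100-30001159, that of 15 nt at chr2:30014158-30014172 and that of 63 nt at chr2:30028644-30028706.
Exon of 60 nt: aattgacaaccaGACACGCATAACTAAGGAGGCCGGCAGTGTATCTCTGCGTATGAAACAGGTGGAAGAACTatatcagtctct
Exon of 15 nt: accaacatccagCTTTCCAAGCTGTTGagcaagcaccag
Exon of 63 nt: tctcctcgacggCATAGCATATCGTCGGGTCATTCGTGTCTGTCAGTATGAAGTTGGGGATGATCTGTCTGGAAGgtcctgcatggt
Transcripts with the exon of 60 nt held 3569 counts and those without it 3555, a difference of 14 over all 11 libraries. Of these 14, ipsilateral libraries held 2, contralateral libraries 4 and sham libraries 8, of which 7 were in sham replicate 1. At this depth the inclusion of these exons could not be compared between groups.

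A short Sptan1 transcript (ENSMUST00000113741, 781 nt in 6 exons at the 5′ end of the gene) showed another pattern, which was noticed after its values were seen and was not tested. Its level was 202, 264, 198 and 189 CPM in ipsilateral replicates 2, 4, 5 and 6. It was 195, 184, 303 and 261 CPM in contralateral replicates 1, 4, 5 and 6, and 173, 157 and 164 CPM in sham replicates 1, 2 and 5. All 3 sham libraries lay below all ipsilateral and contralateral libraries, on 10 to 44 counts in sham, 9 to 27 in ipsilateral and 24 to 147 in contralateral libraries. It was the single case among the 31 distinct transcripts of the 4 genes whose ranges did not overlap between ipsilateral and sham libraries, or between contralateral and sham libraries, and 0 of 31 did so between ipsilateral and contralateral libraries. Over all 7517 distinct transcripts in the table the shares were 6.45%, 7.6% and 4.4% in that order of comparisons, so 1 of 31 is no more than the background. The other Sptan1 transcript of low count (ENSMUST00000129241) ran from 181 to 396 CPM in ipsilateral libraries, from 155 to 390 CPM in contralateral libraries and from 222 to 542 CPM in sham libraries, and its groups overlapped. The short transcript shares 730 of its 781 nt with the Sptan1 representative and is not contained in it, so no share of the representative's count is given. Between the lowest and the highest library its level differed 1.93-fold, and that of the representative 2.33-fold.

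**Figure D4:**
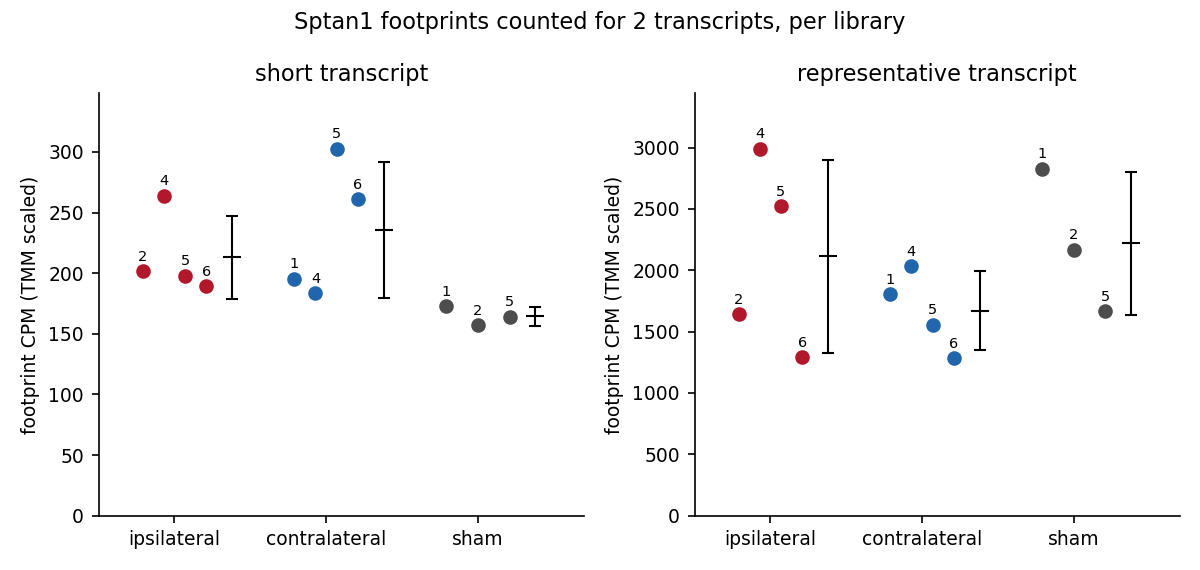
CPM of the short 5′ Sptan1 transcript (left) and of the Sptan1 representative transcript (right) in each library, numbered by replicate, with the mean ± SD beside each group and the vertical axes starting at 0. The short transcript lies at 157 to 173 CPM in sham libraries and above that in all others, while the representative overlaps among the groups.

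The annotation limits what can be said of isoforms. The Ank2 representative (ENSMUST00000182588, 1817 counts) is annotated in GENCODE vM21 as a retained intron of 2359 nt with no coding sequence, yet it held more counts than transcripts that contain its exon, at 878 and 1098. The long coding transcript of Ank2 (ENSMUST00000182064, 12413 nt) held 1804 counts and nearly the same value in each library. For Sptan1, ENSMUST00000129241 shares 7522 nt with a transcript of 3569 counts but held 549. Why the counts of some identifiers do not follow their annotated models was not tested, and no giant or short ankyrin isoform is described.

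Other spectrin and ankyrin genes were examined beside the members. Sptbn4, beta IV spectrin of the axon initial segment and nodes, had 42.4 ± 31.1 CPM in ipsilateral libraries (SD, n = 4), with a count of 0 in replicate 4, which allows up to 3 counts, and 104 ± 74.8 CPM in sham libraries (SD, n = 3). Contralateral libraries averaged 59.1 ± 27.0 CPM (SD, n = 4). The sham libraries held 74.6, 188 and 47.7 CPM in replicates 1, 2 and 5, on 19, 12 and 9 counts, and the groups overlapped. The edgeR log2 change of Sptbn4, ipsilateral minus sham, was -0.75 ± 0.51 (adjusted p = 0.781). Ank1, the ankyrin of red blood cells, held 112 counts in all and did not pass the filter on low counts.

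Proteins around the spectrin net were examined as lists. Among adducins, Epb41 family proteins and actin caps, which tie spectrin to actin ends and to the membrane, 0 of 13 tested genes rose and 0 fell in any comparison by edgeR, with a median log2 change of -0.13 for ipsilateral minus sham. Add1, alpha adducin, averaged 379 ± 91.3 CPM in ipsilateral libraries (SD, n = 4) and 456 ± 60.3 CPM in sham libraries (SD, n = 3). Epb41l2, an Epb41 relative that binds spectrin and actin, averaged 207 ± 131 CPM in ipsilateral libraries and 98.0 ± 26.0 CPM in sham libraries, with an edgeR log2 change of 0.98 ± 0.34 (adjusted p = 0.381). Mpp1, a membrane scaffold, had a log2 change of -0.63 ± 0.49 (adjusted p = 0.824).

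Neither actin passed the test. Actb, beta actin, averaged 3592 ± 139 CPM in ipsilateral libraries, 3246 ± 112 CPM in contralateral libraries and 3834 ± 243 CPM in sham libraries (SD, n = 4, 4 and 3). Actg1, gamma actin, averaged 1077 ± 54.3 CPM in ipsilateral libraries, 935 ± 89.5 CPM in contralateral libraries and 1187 ± 52.2 CPM in sham libraries, with an edgeR log2 change for contralateral minus sham of -0.34 ± 0.15 (adjusted p = 0.854).

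Of the membrane proteins that ankyrins hold, 0 of 5 tested adhesion molecules and 0 of 20 tested channels and carriers passed the test in any comparison. For ipsilateral minus sham their median log2 changes were -0.01 and -0.02. Nfasc, neurofascin, which ankyrin-G gathers at the initial segment, averaged 476 ± 60.3 CPM in ipsilateral libraries and 351 ± 77.3 CPM in sham libraries, with an edgeR log2 change of 0.48 ± 0.21 (adjusted p = 0.507). Chl1, a relative of L1cam, had -0.17 ± 0.17 against sham libraries and -0.39 ± 0.16 against contralateral libraries (adjusted p = 0.509). Among sodium channel beta subunits, Scn4b had a log2 change of -0.79 ± 0.41 (adjusted p = 0.695) and Scn3b of 0.65 ± 0.38 (adjusted p = 0.728). These are values of opposite sign, neither past the threshold.

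Among the other initial segment and node genes, 0 of 17 tested genes passed the test in any comparison, and the median log2 change for ipsilateral minus sham was 0.01. The microtubule-associated proteins Map1a and Map1b, at 3144 ± 482 and 3485 ± 465 CPM in ipsilateral libraries (SD, n = 4) and 3076 ± 297 and 3439 ± 339 CPM in sham libraries (SD, n = 3), had log2 changes of 0.02 ± 0.15 and 0.01 ± 0.14. Kcna2, a potassium channel subunit flanking the nodes, had -0.45 ± 0.27 (adjusted p = 0.732), and Csnk2a1, a catalytic subunit of the kinase CK2, which acts on ankyrin binding sites of sodium channels, had -0.49 ± 0.36 (adjusted p = 0.811).

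Calpains are calcium-dependent proteases that cut alpha II spectrin, and calmodulin binds close to the cut site. Of 11 listed calpain genes 3 were tested, and none was called in any comparison. Capn2, the catalytic subunit of m-calpain, averaged 154 ± 59.5 CPM in ipsilateral libraries, 87.6 ± 25.5 CPM in contralateral libraries and 135 ± 26.2 CPM in sham libraries (SD, n = 4, 4 and 3). Its edgeR log2 change was 0.88 ± 0.28 for ipsilateral minus contralateral (adjusted p = 0.243) and 0.31 ± 0.30 for ipsilateral minus sham (adjusted p = 0.881). Of the 3 calmodulin genes, all tested and none called, Calm2 averaged 1466 ± 418 CPM in ipsilateral libraries and 1905 ± 605 CPM in sham libraries, a log2 change of -0.39 ± 0.23 (adjusted p = 0.746). Protein cleavage is not seen by footprints.

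**Figure D5:**
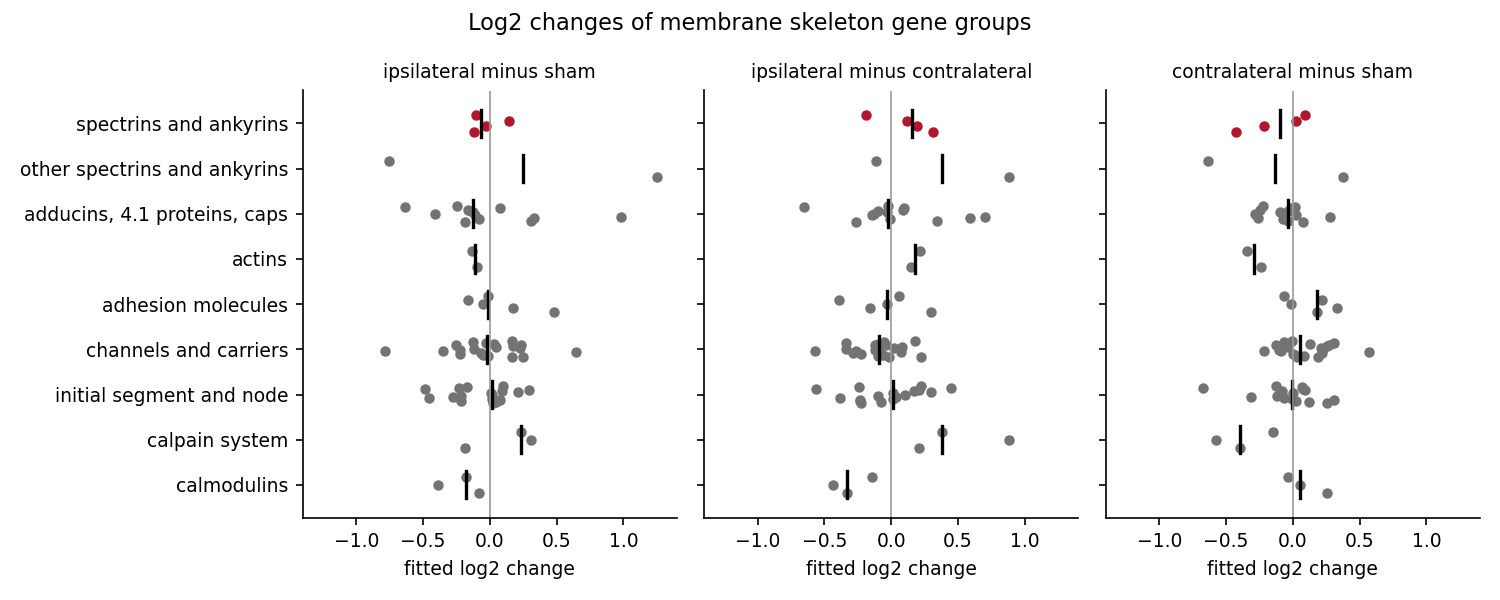
Fitted log2 change of each tested gene (point) in the spectrin and ankyrin genes and in 8 related gene lists, with the median of each list as a vertical bar, in 3 comparisons named above the panels. None of the genes shown passed an adjusted p under 0.05 in edgeR.

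Genes with the most similar profile over the 11 libraries were found by the root mean square difference of centred log2 CPM, among 1129 genes averaging at least 200 CPM. For Sptbn1 the nearest was Map1a at 0.0953, then Chgb at 0.114 and Tubb4a at 0.139, beside a median of 0.337 over all candidates. For Ank2 they were Syngr3 at 0.103, Rusc1 at 0.108 and Lancl1 at 0.115 (median 0.330), and for Ank3 Pdha1 at 0.136, Cspg5 at 0.146 and Lrp1 at 0.153 (median 0.337). For Sptan1 they were Pcdhgb6 at 0.219, Eif3a at 0.221 and Pcdhga12 at 0.227 (median 0.484), with Sptbn1 at place 5 and 0.257. The protocadherin genes share exons with their cluster, so the same footprints may be counted for several of them. Pcdhgb6 and Pcdhga12 may therefore not be independent. This measure favours genes of little spread and is a description.

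Markers of cell types were summed in each library beside these values. In edgeR's tests 0 neuron, 0 astrocyte and 0 microglia markers rose or fell in any comparison. All marker calls, given below, were in ipsilateral minus contralateral. Neuron markers, 15 of 16 tested, summed to 18678 to 21859 CPM in ipsilateral libraries, 19665 to 22648 CPM in contralateral libraries and 20068 to 21841 CPM in sham libraries, and astrocyte markers, 10 of 10 tested, to 11688 to 13550, 12092 to 16543 and 10806 to 14386 CPM. Oligodendrocyte markers, 7 of 10 tested, summed to 2598 to 5896 CPM in ipsilateral libraries, 1991 to 2753 CPM in contralateral libraries and 1959 to 2623 CPM in sham libraries, and 4 of them, Mbp, Mag and Cldn11 included, rose in edgeR's test of ipsilateral minus contralateral. Microglia markers, 8 of 10 tested, summed to 1559 to 2073 CPM in ipsilateral libraries, 1219 to 1445 CPM in contralateral libraries and 911 to 1202 CPM in sham libraries. Hemoglobin genes, the 4 of 11 blood markers tested, summed to 1041 to 2024, 566 to 989 and 895 to 1324 CPM in ipsilateral, contralateral and sham libraries. Of these, Hba-a1 and Hba-a2 rose in edgeR's test of ipsilateral minus contralateral, with log2 changes of 1.13 ± 0.23 (adjusted p = 0.00987) and 1.14 ± 0.26 (adjusted p = 0.0257). Both encode alpha globin and are near-identical copies, so their footprints are not independent. None of the 10 endothelial and pericyte markers was in the table. Spectrins and ankyrins are made in most of these cells, and the part of these differences in the values above was not tested.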

How the data were processed

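Footprint counts per Ensembl transcript, whole numbers with 1 column per library, were used as the authors deposited them. Per the labels' protocols, monosomes were released with nuclease and captured, and protected RNA of 30 to 50 nt was selected. The same protocols also name a range of insert lengths that reaches below 30 nt. The submitters' processing notes list Bowtie2, edgeR and mm10, with no versions or roles. For the counting tool and its annotation, nothing is given in the sources used here. Of 9784 transcripts, each with at least 101 counts, 9736 matched GENCODE vM21, and the other 48, with 0.306% of counts, were left out; 0 other sample columns were found. Per gene symbol the transcript with the highest summed count was kept. Tests used edgeR 4.0.16 in R 4.3.3 (TMM, filterByExpr with a minimum count of 10, robust quasi-likelihood, all 11 libraries in 1 fit by group, Benjamini-Hochberg over 3835 genes), tested on simulated data. Alternatives used limma 3.58.1, DESeq2 1.42.0, other scalings and filters, and single libraries left out. Count ratios had exact permutation tests.

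The replicate number marks the day of surgery, as the design text says, so it pairs libraries; the correlation of deviations from group means was -0.139 to 0.224 over 7 same-day pairs (median 0.131) and -0.255 to 0.259 over 33 others (median -0.0300). No 2 libraries agreed within counting noise: the chi-square per degree of freedom was at least 1.22 for every pair. The members, lists and comparisons were chosen with earlier results of these data known. Besides the 4 members, the genes named are those of highest mean CPM and of largest ipsilateral minus sham change in each list, and any called; a few of these are not reported here.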

Additional observations from a re-analysis of the deposited data

How the results depend on the processing

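The 4 genes gave 240 values under alternative settings, and 0 passed an adjusted p under 0.05; the lowest was 0.500, for Sptan1 in ipsilateral minus contralateral libraries with the replicate block. With that block, which pairs libraries by day, the contralateral minus sham value was -0.11 for Ank2 and -0.027 for Ank3, reversed in sign; it changed no call of these genes, and it called 3, 11 and 0 genes in the 3 comparisons. With the longest coding transcript in place of the most counted one, the Sptan1 to Sptbn1 ratio for ipsilateral minus contralateral reversed to -0.11, and the Sptan1 change for ipsilateral minus sham was -0.56; that choice swaps in the Sptan1 transcript of 549 counts. DESeq2 called 10 genes for ipsilateral minus sham (edgeR 4) and 2 for contralateral minus sham (edgeR 0). For ipsilateral minus contralateral, upper quartile scaling called 8 genes and leaving out the 2 shallowest libraries 7 (main 14). The cause of these shifts was not tested.

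Leaving out 1 library at a time gave log2 ranges for ipsilateral minus sham of -0.30 to 0.11 for Sptan1, -0.11 to 0.072 for Sptbn1 and -0.36 to 0.018 for the Sptan1 to Sptbn1 ratio, and of -0.0091 to 0.21 for that ratio in ipsilateral minus contralateral. For contralateral minus sham they were -0.028 to 0.13 for Ank2, -0.011 to 0.24 for Ank3 and -0.26 to 0.10 for the Ank2 to Ank3 ratio. The ipsilateral minus sham Ank2 to Ank3 ratio kept its sign, at 0.17 to 0.32. Genes called ranged from 0 to 22, from 4 to 26 and from 0 to 3 in the 3 comparisons; without sham replicate 1 the first count was 0, without sham replicate 5 it was 2 and without ipsilateral replicate 5 it was 22. For ipsilateral minus contralateral it was 6, 9 and 26 without ipsilateral replicates 2, 4 and 5, and 5, 9 and 4 without contralateral replicates 1, 4 and 6; for contralateral minus sham it was 1 without ipsilateral replicate 6 and 3 without sham replicate 5. With 35068 counts in the shallowest library, depth limits what can be seen, most for Ank3, at 15 counts there.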
